A study of Homo sapiens with 12 samples.

Results

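Knockdown of NIK was followed in Z-138, an established human line derived from mantle cell lymphoma, a tumour of B lymphocytes, whose labels give a nonsense change in TRAF2. The arrays described here were selected by line and hairpin from the sample labels: 4 of the 12 arrays of the series, the Z-138 cultures that held NIKsh#1 or NIKsh#2, each without doxycycline (0 ng/ml DOX) and with 100 ng/ml DOX for 7 days. Both NIKsh constructs are inducible short hairpins against MAP3K14, the gene that encodes NIK, and the doxycycline array of a hairpin was compared with the untreated array of the same hairpin. A Z-138 culture with an inducible non-targeting hairpin (NTC), also at 0 and 100 ng/ml DOX, gave 2 further arrays and served as the reference for induction as such. Maver-1 is a mantle cell lymphoma line that the labels give as TRAF3 deleted. Its 4 NIKsh arrays were used where a difference between the lines was tested, and its NTC pair gave the remaining 2 arrays. The model was fitted to all 12 arrays, so the Maver-1 NIKsh pairs also set part of the spread behind every Z-138 p-value. All cultures grew under puromycin, which selects for the hairpin vector, so the untreated cells carried the same constructs. Each hairpin had 1 array per condition, and such a pair of arrays is called a culture here. Nothing in the labels says whether further independent cultures stood behind an array. The p-values therefore measure only the spread between these cultures, which may be technical.

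NIK is the kinase that starts the alternative branch of NF-kB signalling. In resting B cells a complex of TRAF2, TRAF3 and the cIAP ubiquitin ligases keeps NIK protein low, and receptors such as CD40, BAFF receptor and lymphotoxin beta receptor release that brake. Stabilised NIK activates IKK alpha, which triggers the cutting of the NFKB2 product p100 into p52, and p52 then acts in the nucleus mainly with RELB. Loss of TRAF2 or TRAF3 leaves this branch switched on without a ligand.

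RNA was measured as one signal per probe set on a linear scale that the authors had scaled to the same trimmed mean of 150.02 on every array. Array medians lay between 10.6 and 14.1. A change is given below as a difference of log2(signal + 3) between the doxycycline array and the untreated array of one culture, a scale on which the change of genes with low signal is understated. Over the 11548 genes with a mean signal of at least 12.55, the SD of the log2 change across genes was 0.46 for NIKsh#1, 0.51 for NIKsh#2 and 0.54 for NTC, against 0.26 to 0.35 in the Maver-1 cultures. The 3'/5' signal ratio at the control probe sets for ACTB, which is higher where RNA is shorter, went from 2.86 to 4.62 with NIKsh#1, from 2.92 to 5.09 with NIKsh#2 and from 2.33 to 6.34 with NTC. It was thus higher with doxycycline in all 3 Z-138 cultures, most of all in the NTC pair, and its part in the results below was not tested. The B cell marker MS4A1 (CD20) lay between 2767 and 3943 in Z-138 and CD22 between 29.4 and 61.8; well measured too were the mantle cell lymphoma genes CCND1 (497 to 1264) and SOX11 (1712 to 3024), while CD5, which usually marks the disease, lay between 0.5 and 1.6 in the 6 Z-138 arrays. These are bulk cultures, in which fewer cells of a type and less RNA per cell cannot be told apart.

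The targeted transcript itself showed a small difference. MAP3K14, on chromosome 17 and read by 1 probe set, went from a signal of 55.2 to 33.3 with NIKsh#1 and from 52.0 to 49.2 with NIKsh#2, while the NTC pair went from 46.4 to 55.4. The NIKsh#1 culture with doxycycline was the lowest of the 6 arrays, and NIKsh#2 with doxycycline lay within the range of the untreated arrays. The mean log2 change with the hairpins was -0.38 ± 0.26 (limma SE), which did not pass (limma, adjusted p = 0.501), and its difference from the NTC change was -0.62 (limma, adjusted p = 0.528). At the RNA level the knockdown by NIKsh#2 was therefore not detectable on this array, and NIK protein was not measured here. The labels are kept as given, and every direction below is that of cultures labelled as NIKsh.

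Among the other components of the alternative pathway, the transcription factor gene RELB and the receptor gene CD40 fell in Z-138 with both hairpins. CD40, the receptor for the T cell ligand CD40L, went from 95.4 to 16.7 with NIKsh#1 and from 73.8 to 25.5 with NIKsh#2, and from 103 to 63.6 with NTC. Both NIKsh arrays with doxycycline lay below every other Z-138 array, and the mean change was -1.88 ± 0.26 (limma, adjusted p = 0.00841). Its difference from NTC was -1.21 and did not pass (limma, adjusted p = 0.263). RELB, the partner of p52, went from 68.0 to 28.3 and from 74.8 to 32.1 with the hairpins and from 90.2 to 76.0 with NTC, with no overlap between the 2 NIKsh arrays with doxycycline and the rest (change -1.17 ± 0.24, limma, adjusted p = 0.0477). Here and below, such separation is partly built in for genes that passed on the same arrays, and its share among all genes was not counted. The difference of RELB from NTC was -0.93 (limma, adjusted p = 0.346). NFKB2, the gene of p100, went from 145 to 54.2 with NIKsh#1 and from 128 to 91.1 with NIKsh#2 but from 114 to 239 with NTC. The hairpin arrays with doxycycline were again the lowest, but the mean change of -0.92 did not pass (limma, adjusted p = 0.109), nor did its difference from the NTC change of -1.96 (limma, adjusted p = 0.094).

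The 2 genes that fell were 2 of 10 alternative pathway components tested, where 1.08% of all genes tested passed as lower (125 of 11548) and 1.06% as higher (122), and none of the 10 passed for the difference from NTC (limma; 68 of all genes did). This list and those below were written with earlier results of these data known. A list count set beside the share of all genes is therefore a description only. RELB lost its call in 4 of 17 alternatives (limma, adjusted p up to 0.0955) and CD40 in 1 of 17 (up to 0.0748). TRAF3, the adaptor that recruits NIK to the ligases, went from 266 to 233 and from 365 to 299.8 with the hairpins, CHUK, the gene of IKK alpha, from 491 to 448 and from 479 to 465, and the ligase gene BIRC2 from 214 to 215 and from 213 to 173; none of the 3 passed. The receptor genes of the BAFF and APRIL ligands went different ways with the hairpins: TNFRSF13B had log2 changes of -0.04 and 1.31, TNFRSF13C of -0.29 and 1.31, and TNFRSF17 of 0.07 and -0.40 with NIKsh#1 and NIKsh#2, and none passed. The median log2 change over the 10 components was -0.24 with NIKsh#1, -0.29 with NIKsh#2 and 0.35 with NTC, beside -0.01, 0.07 and 0.06 over all genes tested. TRAF2 and BIRC3 were not analysed here.

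**Figure D1:**
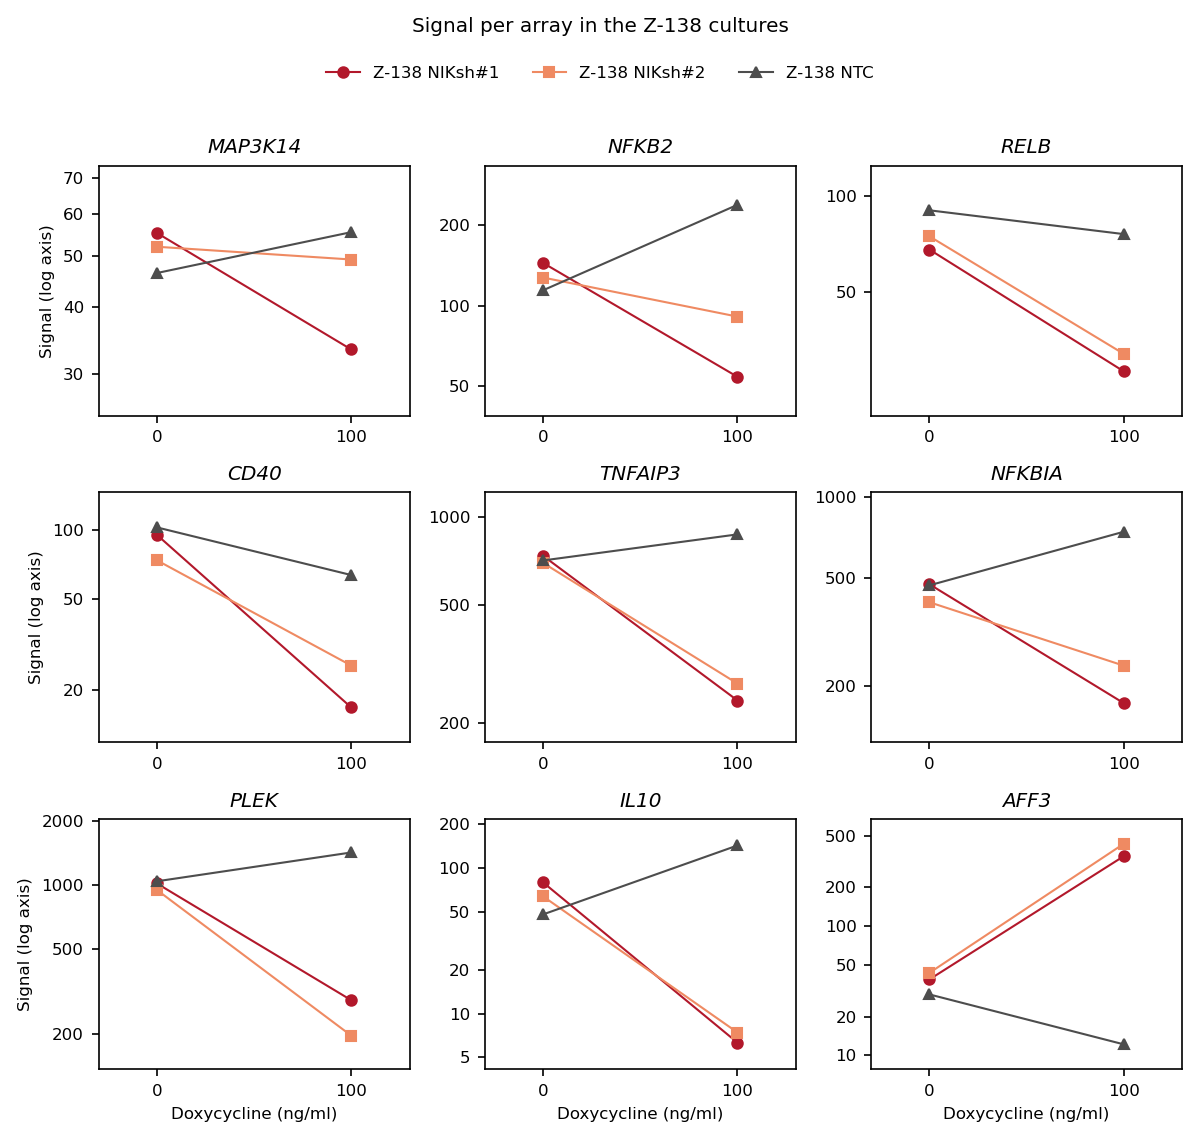
Signal per array (log axis, its own range in each panel) at 0 and 100 ng/ml doxycycline for 9 genes in the 3 Z-138 cultures, 1 array per point, with lines joining the arrays of a culture. Both NIKsh arrays with doxycycline are the lowest for NFKB2, RELB, CD40, TNFAIP3, NFKBIA, PLEK and IL10 and the highest for AFF3, while for MAP3K14 only NIKsh#1 is low (33.3 against 49.2 with NIKsh#2).

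Genes that restrain NF-kB also fell. TNFAIP3, which encodes the ubiquitin-editing enzyme A20, went from 736 to 238 with NIKsh#1, from 696 to 272 with NIKsh#2 and from 710.1 to 870.1 with NTC. NFKBIA, the gene of I kappa B alpha that holds NF-kB in the cytoplasm, went from 476 to 173 and from 408 to 238 with the hairpins and from 471 to 744 with NTC. CYLD, a deubiquitinase of the same circuit, went from 236 to 148 and from 267 to 109.9, and from 258 to 310.4 with NTC. For all 3 genes both NIKsh arrays with doxycycline lay below all 4 other Z-138 arrays. The mean changes were -1.48 ± 0.16 for TNFAIP3, -1.11 ± 0.21 for NFKBIA and -0.96 ± 0.19 for CYLD (limma, adjusted p = 0.00257, 0.0323 and 0.0404). They were 3 of 12 inhibitor genes tested, beside 1.08% of all genes, and no inhibitor passed as higher. CYLD lost its call in 5 of 18 alternatives (limma, adjusted p up to 0.147), NFKBIA in 2 of 17 (up to 0.143) and TNFAIP3 in 1 of 18 (up to 0.0579). TNFAIP3 also passed in the difference from NTC (-1.77 ± 0.28, limma, adjusted p = 0.0307), the only 1 of the 12 to do so. The differences of NFKBIA (-1.765) and CYLD (-1.22) from NTC did not pass (limma, adjusted p = 0.0755 and 0.145).

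In a list of 38 tested NF-kB target genes, 7 fell and 1 rose, beside 1.08% and 1.06% of all genes. This list too was written with earlier results of these data known. The list median was -0.45 with NIKsh#1, -0.20 with NIKsh#2 and 0.17 with NTC. IL10, a cytokine that dampens immune responses, went from 79.7 to 6.3 with NIKsh#1 and from 63.9 to 7.4 with NIKsh#2, near the bottom of the scale, and from 48.1 to 143 with NTC. PLEK, the gene of the signalling protein pleckstrin, went from 1015 to 287 and from 946 to 196 with the hairpins and from 1039.9 to 1420.3 with NTC. CD80, a costimulatory ligand for CD28 on T cells, went from 58.2 to 9.1 and from 92.9 to 26.7, and from 71.7 to 82.3 with NTC. In each of these genes the NIKsh arrays with doxycycline stood clear of the other 4 Z-138 arrays. The mean changes were -2.92 ± 0.31 for IL10, -2.03 ± 0.14 for PLEK and -2.02 ± 0.31 for CD80 (limma, adjusted p = 0.00257, 0.000408 and 0.0143). The difference of CD80 from NTC was -2.21 and did not pass (limma, adjusted p = 0.111). TNFAIP3, CD40, NFKBIA and RELB, given above, were the other 4 that fell.

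RGS1, a brake on G protein signalling by chemokine receptors, was the member that rose, from 482 to 1792 with NIKsh#1 and from 519 to 1619 with NIKsh#2, with the NTC pair going from 407 to 628 (change 1.76 ± 0.13, limma, adjusted p = 0.000607). Further members were at least 1.5-fold lower with both hairpins without passing: LTB, a lymphotoxin subunit that is itself a ligand of the alternative pathway (-2.25 and -0.90), CFLAR, an inhibitor of caspase 8 (-0.77 and -0.92), and the death receptor gene FAS (-1.08 and -0.75). In all, 10 of the 38 targets were at least 1.5-fold lower and 2 at least 1.5-fold higher with both hairpins, where over all genes tested 2.1% were lower (242) and 2.88% higher (333). The well-known target ICAM1, an adhesion ligand, had changes of -1.59 and -0.49 and NFKBIE, another I kappa B gene, of -1.23 and -0.05, both much larger with NIKsh#1 and neither past the threshold. The lists of components, inhibitors and targets share members, NFKBIA and TNFAIP3 among them, and so are not separate counts.

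The promoters of these genes are shown because the NF-kB factors act on DNA of a known pattern. Of the 10 targets at least 1.5-fold lower with both hairpins, 8 had an entry in the RefSeq promoter table of GRCh38.p14, which gives 300 bases from 250 before to 50 after the start of the gene, and 4 of the 8 held a match to the kappaB consensus on either strand. The matched promoters run 5' to 3' on the gene's strand in lower case, with the matches in capitals: TNFAIP3 at chr6:137867009-137867308 on the plus strand, NFKBIA at chr14:35404700-35404999 on the minus strand, LTB at chr6:31582376-31582675 on the minus strand, and CFLAR at chr2:201118466-201118765 on the plus strand.
TNFAIP3: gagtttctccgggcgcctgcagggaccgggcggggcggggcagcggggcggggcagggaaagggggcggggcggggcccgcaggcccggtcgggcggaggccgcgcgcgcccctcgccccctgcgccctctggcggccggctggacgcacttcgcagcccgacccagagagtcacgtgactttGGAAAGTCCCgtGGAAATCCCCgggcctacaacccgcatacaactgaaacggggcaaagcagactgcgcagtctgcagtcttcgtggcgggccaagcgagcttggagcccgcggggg
NFKBIA: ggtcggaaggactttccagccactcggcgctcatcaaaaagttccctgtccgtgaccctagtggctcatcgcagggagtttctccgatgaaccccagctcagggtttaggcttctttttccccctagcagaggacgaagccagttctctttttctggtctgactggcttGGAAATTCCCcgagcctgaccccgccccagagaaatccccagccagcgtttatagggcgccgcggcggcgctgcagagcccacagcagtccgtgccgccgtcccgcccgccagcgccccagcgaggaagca
LTB: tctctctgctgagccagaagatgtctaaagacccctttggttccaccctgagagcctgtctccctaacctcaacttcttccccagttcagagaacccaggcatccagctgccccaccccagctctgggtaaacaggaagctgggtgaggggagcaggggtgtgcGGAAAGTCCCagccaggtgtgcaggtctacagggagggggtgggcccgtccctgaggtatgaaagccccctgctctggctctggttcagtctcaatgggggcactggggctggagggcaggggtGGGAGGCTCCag
CFLAR: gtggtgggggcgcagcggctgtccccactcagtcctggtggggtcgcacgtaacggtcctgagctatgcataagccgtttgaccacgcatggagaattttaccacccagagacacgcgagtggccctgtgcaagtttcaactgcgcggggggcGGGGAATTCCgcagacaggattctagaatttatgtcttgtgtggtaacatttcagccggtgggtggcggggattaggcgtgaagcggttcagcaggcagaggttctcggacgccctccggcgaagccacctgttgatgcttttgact
TNFAIP3 and LTB held 2 matches each, NFKBIA and CFLAR 1 each, and the windows of IL10, PLEK, CD80 and FAS held none. The consensus occurred in 11.3% of all 35116 promoters of the table and in 12.7% of the promoters of the genes tested. It occurred in 17 of the 89 promoters of genes that fell (19.1%) and in 9 of the 97 of genes that rose (9.28%). A match describes these letters only and is not a site bound by a factor.

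The precursor transcript of a microRNA gene that NF-kB is known to induce was among the genes that fell, and was picked out after its values were seen. The probe set annotated to MIR146A, on chromosome 5, went from 23.5 to 4.4 with NIKsh#1, from 15.7 to 2.3 with NIKsh#2 and from 18.3 to 26.6 with NTC, so that the hairpin arrays with doxycycline were the lowest at signals near the bottom of the scale (change -1.83 ± 0.27, limma, adjusted p = 0.0121). The array reads the long precursor RNA and not the mature microRNA, whose sequence in RefSeq (GRCh38.p14, chr5:160485372-160485393, plus strand) is shown with its seed, bases 2 to 8, in capitals, since miR-146a dampens NF-kB signalling from receptors through its targets.
hsa-miR-146a-5p: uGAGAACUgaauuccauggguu

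Some antigen presentation genes fell as well. Of 17 MHC class II genes tested, 3 fell and none rose, beside 1.08% and 1.06% of all genes: HLA-DQA1, a chain of the HLA-DQ molecule, went from 1342 to 452 with NIKsh#1, from 1234 to 749 with NIKsh#2 and from 1591 to 1486 with NTC. HLA-DOB, which tunes peptide loading, went from 131 to 57.3 and from 123 to 56.1, and HLA-DMA, which loads peptides, from 795 to 451 and from 903 to 637. The NTC pair kept both close to the untreated level, from 131 to 129 and from 968 to 988. The changes were -1.14 ± 0.17, -1.12 ± 0.23 and -0.66 ± 0.12 (limma, adjusted p = 0.0105, 0.0431 and 0.0331). None of the 3 passed for the difference from NTC (-1.04, -1.10 and -0.69; limma, adjusted p = 0.15, 0.244 and 0.195). In 15 of the 17 genes the change was below 0 with both hairpins, as it was in 2980 of all 11548, and the median was -0.66 with NIKsh#1, -0.27 with NIKsh#2 and 0.03 with NTC. CIITA, the master activator of these genes, had -0.63 and -0.06 and did not pass, and HLA-DRA went only from 3582 to 3032 and from 3113 to 2876.

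Of 20 MHC class I genes, 2 fell (1.08% of all genes did): the nonclassical class I gene HLA-G (-0.78 ± 0.15) and TAPBP, the peptide-loading protein tapasin (-0.51 ± 0.10; limma, adjusted p = 0.0326 and 0.0404); probe sets of HLA genes can take signal from near-identical paralogues, so the identity of HLA-G is uncertain. Tapasin moved about as much in the NTC pair (-0.39). Among 21 costimulation and adhesion genes only CD40 and CD80 passed, both lower, where 1.08% of all genes passed as lower and 1.06% as higher. CD86, the sister ligand of CD80, did not follow it, with changes of 1.44 and -0.04 that did not pass.

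Genes of the B cell and plasma cell states moved in both directions. AFF3, a transcriptional regulator of the lymphoid lineage, went from 38.8 to 349 with NIKsh#1 and from 43.6 to 435 with NIKsh#2, while NTC went from 29.7 to 12.2. ELL2, an elongation factor that plasma cells use to process antibody transcripts, did the reverse, from 389 to 66.7 and from 359.8 to 47.6 with the hairpins and from 385 to 771 with NTC. For both genes the hairpin and NTC cultures with doxycycline lay on opposite sides of the untreated arrays. AFF3 rose by 3.15 ± 0.18 and ELL2 fell by 2.67 ± 0.20 on the log2 scale (limma, adjusted p = 0.000178 and 0.000607).

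FOXO1, a transcription factor of B cell development, rose from 586 to 1038 and from 655 to 1132 with the hairpins and went from 484 to 336 with NTC (change 0.81 ± 0.12, limma, adjusted p = 0.0108). BCL6, the factor of the germinal centre, had 1.64 and 0.83 and missed the threshold (limma, adjusted p = 0.0503), as did POU2F2, which encodes OCT2 (0.70 and 1.64). MZB1, an endoplasmic reticulum protein of antibody-secreting cells, fell from 746 to 336 and from 808 to 334, but the NTC pair also went from 1001 to 579 (change -1.21 ± 0.14, limma, adjusted p = 0.00315; difference from NTC -0.42, adjusted p = 0.429). The plasma cell regulators PRDM1 (-0.25 and -0.82), XBP1 (-0.48 and -0.69) and IRF4 (-0.11 and -0.02) did not pass. Of 19 B cell transcription factor genes, FOXO1 rose and TCF4, an E protein gene of B cell development, fell slightly (-0.34 ± 0.07, limma, adjusted p = 0.0498), less than in the NTC pair (-0.50). That is 1 each way of 19, beside 1.06% of all genes higher and 1.08% lower.

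In 22 genes of B cell receptor signalling, 3 fell and 1 rose, beside 1.08% and 1.06% of all genes. RASGRP3, an exchange factor that links the receptor to RAS, went from 575 to 70.3 with NIKsh#1, from 544 to 87.0 with NIKsh#2 and from 622 to 880.3 with NTC, a fall of 2.79 ± 0.26 (limma, adjusted p = 0.00119). DAPP1, an adaptor of the same route, went from 195 to 66.8 and from 179.5 to 84.5, but also from 246 to 114 with NTC, and its difference from NTC was only -0.19 (limma, adjusted p = 0.83). BANK1, a B cell scaffold protein, rose from 86.0 to 237 and from 63.2 to 123 and went from 80.4 to 63.1 with NTC (change 1.18 ± 0.24, limma, adjusted p = 0.0407). The kinase gene LCK, which is also a T cell marker, fell from 131 to 43.8 and from 104 to 26.8, and went from 116 to 252 with NTC (change -1.68 ± 0.28, limma, adjusted p = 0.0202). Of the 10 T and NK cell markers 4 were high enough to be tested and LCK alone passed, and their summed signal went from 308 to 152 with NIKsh#1, from 323 to 179 with NIKsh#2 and from 355 to 479 with NTC, with LCK and CD3G making up most of it. The median change of the 4 was -0.92 with NIKsh#1, -1.05 with NIKsh#2 and -0.01 with NTC. CD2, CD3D, CD3E and CD4 lay between 0.4 and 8.7 in the 6 Z-138 arrays.

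The markers of other cell types differed in their signal. The 6 measured monocyte markers summed to between 20.5 and 41.9 over the Z-138 arrays, and CD14 was at most 2.9. Of 8 fibroblast, epithelial and endothelial markers, COL1A1 and PECAM1 fell (2 of 5 tested, beside 1.08% of all genes). In untreated Z-138, COL1A1 lay between 164 and 244 and PECAM1 between 203 and 279. The sum went from 473 to 216 with NIKsh#1, from 542 to 203 with NIKsh#2 and from 424 to 665 with NTC. KRT18 went from 2 to 11.1 and from 4.5 to 8.9 with the hairpins, and KRT8 from 11.7 to 16.2 and from 15.8 to 18.3. With NTC they went from 1.5 to 6.2 and from 11.4 to 26.4. COL3A1, EPCAM and VWF lay between 0.5 and 7.4. None of the 7 B cell markers passed (limma, 4 at an unadjusted p under 0.05), and their sum went from 6940 to 9007 with NIKsh#1, from 7456 to 8912 with NIKsh#2 and from 6829 to 5352.0 with NTC. The part of these shifts in the other results was not tested.

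Among genes that matter in mantle cell lymphoma, TLR10 and ROR1 rose and CDK6 fell (3 of 15 tested, beside 1.06% higher and 1.08% lower of all genes). TLR10, which encodes a Toll-like receptor, went from 37.2 to 180.0 and from 56.6 to 181 with the hairpins and from 55.7 to 41.6 with NTC. ROR1, a surface receptor of malignant B cells, went from 109 to 225 and from 140.2 to 306, and from 93.2 to 59.7 with NTC. CDK6, a cell cycle kinase, went from 157 to 31.6 and from 123 to 66.8, and from 237 to 742 with NTC. For each of the 3 genes the NTC pair went the other way. The changes were 1.91 ± 0.23, 1.07 ± 0.18 and -1.53 ± 0.32 (limma, adjusted p = 0.00418, 0.0203 and 0.0461). CCND1, the cyclin gene that the disease's translocation activates, went from 1159 to 1264 with NIKsh#1 but from 1153 to 497 with NIKsh#2, and did not pass.

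In the lists that follow 0 to 2 members passed in either direction, where 1.08% of all genes passed as lower and 1.06% as higher. BCL2, the survival gene, fell a little with both hairpins, from 1913 to 1500.5 and from 1864 to 1342, with NTC from 1964 to 1899 (change -0.41 ± 0.07, limma, adjusted p = 0.0284), the only one of 27 apoptosis genes that passed. Of 22 p53 targets, GADD45A rose, from 43.8 to 105 and from 55.7 to 98.4, and the NTC pair went just as far, from 49.5 to 113 (change 0.99 ± 0.20, limma, adjusted p = 0.0404; difference from NTC -0.15, adjusted p = 0.87). Of 30 glycolysis and hypoxia genes, ADM and ANKRD37, both hypoxia-inducible, fell (-1.14 ± 0.21 and -1.24 ± 0.20) and PFKFB3, a driver of glycolysis, rose (0.65 ± 0.12; limma, adjusted p = 0.0322, 0.0187 and 0.0343). Of 27 interferon response genes, PARP9 rose (1.17 ± 0.20) and the RNA sensor gene IFIH1 fell (-1.63 ± 0.21; limma, adjusted p = 0.0218 and 0.00654). The RNA interference genes TNRC6B and DICER1 rose by 0.54 ± 0.10 and 0.45 ± 0.09 (limma, adjusted p = 0.0242 and 0.0469), 2 of 16 tested. Of 11 chemokine and homing genes, the receptor gene GPR183 rose (0.79 ± 0.11) and the integrin gene ITGAE fell (-0.59 ± 0.10; limma, adjusted p = 0.00949 and 0.0177).

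Proliferation genes did not pass with the hairpins. None of 38 S phase genes, 41 G2/M genes or 28 MYC and ribosome biogenesis genes passed by limma, with 1, 3 and 4 at an unadjusted p under 0.05. The hairpins differed in sign for S phase: 32 of the 38 genes were below 0 with NIKsh#1 (median -0.18) but 9 with NIKsh#2 (median 0.14) and 11 with NTC (median 0.16). The 19 canonical NF-kB components, among them NFKB1 (-0.63 and -0.24), RELA (0.08 and -0.02) and REL (-0.02 and 0.45), had none that passed by limma, with 2 at an unadjusted p under 0.05. None passed by limma among 26 ATF4 stress genes, 20 endoplasmic reticulum chaperones, 22 cholesterol and fatty acid synthesis genes or 26 cytosolic ribosome genes, with 6, 1, 7 and 18 at an unadjusted p under 0.05. The ribosome genes had a median of 0.16 with NIKsh#1, 0.13 with NIKsh#2 and 0.17 with NTC.

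**Figure D2:**
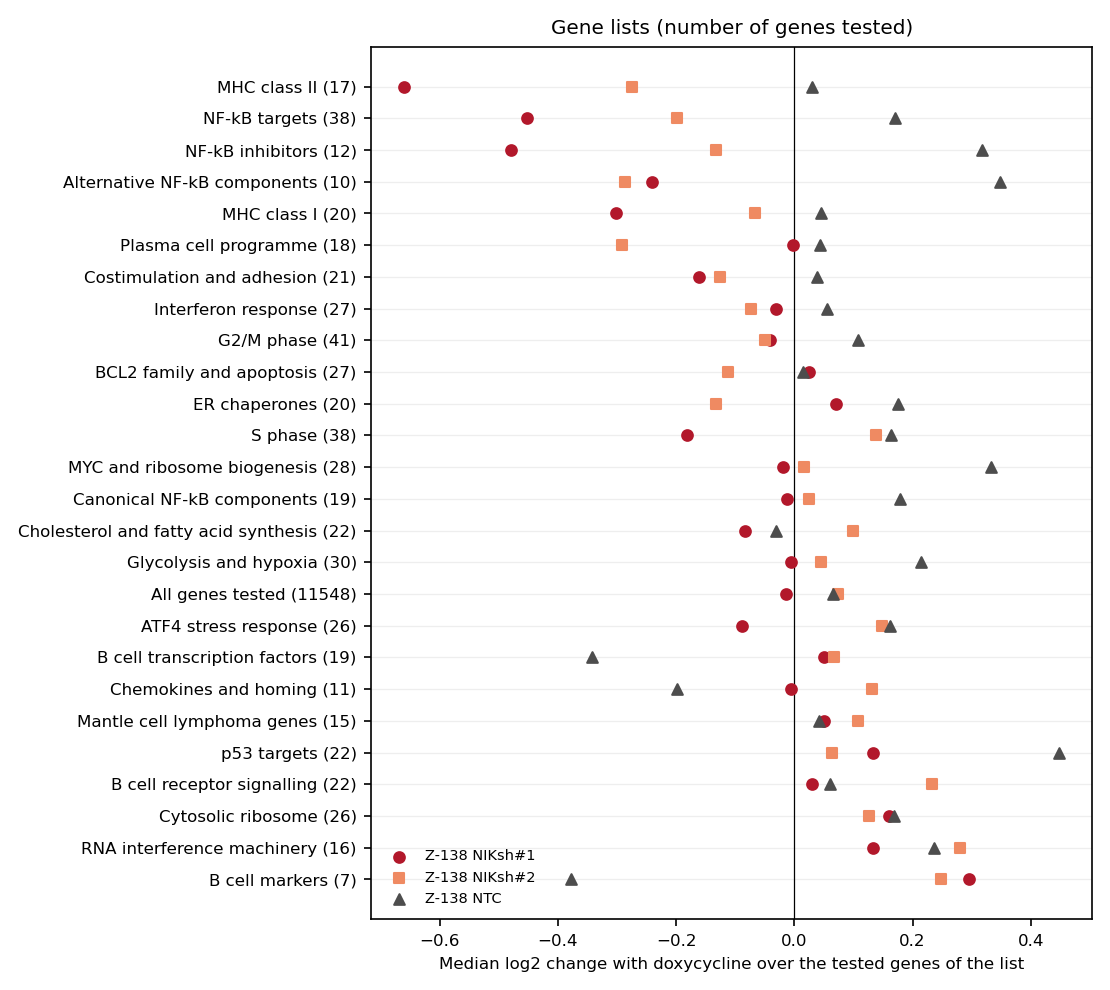
Median log2 change with doxycycline (x axis) over the tested genes of each list with at least 7 tested genes (y axis, number of genes in brackets) in the 3 Z-138 cultures, 1 pair of arrays per symbol, ordered by the mean of the 2 hairpin medians. MHC class II, NF-kB target and NF-kB inhibitor genes sit lowest of the lists shown with NIKsh#1 (-0.66, -0.45 and -0.48), and NTC lies at or above 0 for all 3 lists.

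Over all genes, 247 of 11548 passed for the doxycycline effect with the hairpins (2.14%; limma, adjusted p under 0.05), 122 higher (1.06%) and 125 lower (1.08%). All 247 had the same sign with both hairpins, which the test largely requires, since a difference between the hairpins widens its error. Of the 247, 169 differed by at least 2-fold, and the median size of the log2 change was 1.28. An unadjusted p under 0.05 was found for 1868 genes, where 0.05 of the genes tested is 577. Without an intensity trend in the variance 23 genes passed and with the mean of all probe sets of a gene 118. Leaving out NIKsh#1 or NIKsh#2 leaves 1 Z-138 hairpin pair, which the model fits exactly. The spread then comes from the Maver-1 pairs alone, so no count is given. With a Maver-1 hairpin left out the spread comes from the Z-138 hairpin pairs alone, and no count is given either. The total degrees of freedom of the model were 9.06 with all arrays. They were 18.88 without NIKsh#1, 18.67 without NIKsh#2, 351.32 without Maver-1 NIKsh#1 and 201.56 without Maver-1 NIKsh#2.

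Several of the genes with the largest rises had little signal in untreated Z-138. RGS13, a brake on G protein signalling in germinal centre B cells, went from 3.2 to 70.1 with NIKsh#1 and from 5.7 to 65.2 with NIKsh#2, and from 5.0 to 4.1 with NTC. THSD7A, a membrane protein with thrombospondin repeats, went from 16.4 to 186 and from 17.8 to 188, and RASGEF1B, a RAS family exchange factor, from 7.9 to 58.3 and from 7.0 to 56.2. NTC went the other way for both, from 11.9 to 4.0 and from 12.8 to 5.4. The mean changes were 3.27 ± 0.34, 3.24 ± 0.30 and 2.53 ± 0.28 (limma, adjusted p = 0.00227, 0.00119 and 0.00274).

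NIBAN3, a B cell protein also called BCNP1, rose from 85.6 to 354 and from 164 to 1026, and went from 80.1 to 15.0 with NTC. ETV5, a transcription factor downstream of RAS and ERK signalling, rose from 72.8 to 597 and from 76.7 to 434, with NTC from 72.0 to 57.4. FGFR3, a receptor of fibroblast growth factors, rose from 55.7 to 289 and from 53 to 207, with NTC from 54.7 to 64.0. In all 3 genes both hairpin arrays with doxycycline were above every other Z-138 array, which is partly built in for genes picked as the largest rises. The changes were 2.32 ± 0.18, 2.72 ± 0.44 and 2.11 ± 0.24 (limma, adjusted p = 0.000607, 0.0177 and 0.00317). The differences of ETV5 (3.03) and FGFR3 (1.90) from NTC did not pass (limma, adjusted p = 0.118 and 0.0885). The other members of the top 12 were the long noncoding RNA KCNQ1OT1 (2.06), the microtubule protein gene MAP2 (2.05), NMT2, an N-myristoyltransferase (2.05), the adenylosuccinate synthase gene ADSS1 (2.00) and FRY, a microtubule-binding protein gene (1.99). AFF3, described above, also belonged to them.

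The largest falls took some abundant transcripts down to a small part of their level. UNC13C, which encodes a protein of vesicle release known from neurons, went from 1743 to 108 with NIKsh#1 and from 1997 to 290.1 with NIKsh#2, against 1872 to 1926 with NTC. SIM1, a transcription factor known from the hypothalamus, went from 49.4 to 1.6 and from 52.1 to 0.8, to the floor of the scale, and from 73.9 to 89.8 with NTC. AQP3, a channel for water and glycerol, went from 78.9 to 15.9 and from 70.6 to 11.7, and from 90.1 to 451 with NTC. For AQP3 the cultures with doxycycline lay on either side of the untreated arrays, and for UNC13C and SIM1 the NTC pair kept near its untreated level. The changes were -3.37 ± 0.26, -3.68 ± 0.32 and -2.22 ± 0.21 (limma, adjusted p = 0.000607, 0.000982 and 0.0012).

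EPB41L4B, a FERM domain protein of the cell cortex, fell from 164 to 23.2 and from 184 to 10.7, and went from 129 to 319.7 with NTC. PTPN3, a tyrosine phosphatase, fell from 185 to 24.3 and from 133 to 17.2, with NTC from 163 to 212. RHEX, a regulator of erythroid cell expansion, fell from 302 to 49.6 and from 306 to 49.4, with NTC from 261 to 191. The changes were -3.22 ± 0.30, -2.77 ± 0.25 and -2.55 ± 0.23 (limma, adjusted p = 0.0012, 0.00119 and 0.000982), and no hairpin array with doxycycline overlapped any other Z-138 array. That separation is partly built in, since the genes were picked as the largest falls on these arrays. TANC1, a scaffold protein gene (-2.43), and the cadherin gene CELSR1 (-2.28) were also among the 12 lowest, as were IL10, RASGRP3 and ELL2. The 12 highest and 12 lowest kept their sign in every alternative that gave them a value, and 13 of the 24 passed without the intensity trend.

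The choice of probe set mattered for several of these genes. With the mean of all probe sets 21 of the 24 had a value and 14 passed. AFF3 was then 0.99 (limma, adjusted p = 0.0781), AQP3 -0.77 (0.175), EPB41L4B -1.09 (0.0665), FRY 0.70 (0.272) and CELSR1 -0.87 (0.1), and FGFR3 and KCNQ1OT1 lost their call as well. Of the probe sets of AFF3, 3 of 6 were at least 1.5-fold higher with both hairpins, as was 1 of 3 for NIBAN3, and 1 of 3 for AQP3 was at least 1.5-fold lower.

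**Figure D3:**
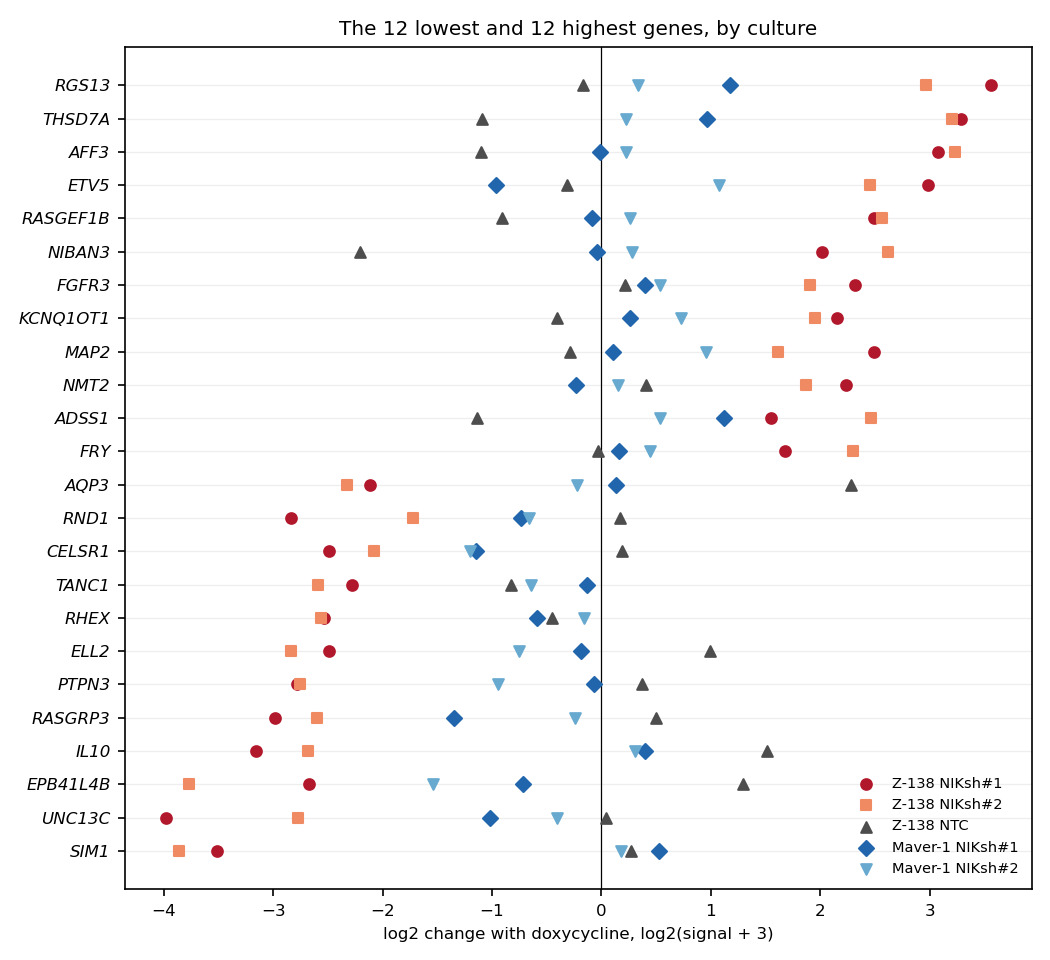
Log2 change with doxycycline (x axis, difference of log2(signal + 3)) for the 12 lowest and 12 highest genes that passed (y axis), 1 pair of arrays per symbol. The 2 Z-138 hairpins lie on the same side of 0 for all 24 genes, while Z-138 NTC lies on the other side of 0 for AQP3 (2.29), NIBAN3 (-2.21) and IL10 (1.52), among others.

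Gene by gene the hairpins were alike only in part. Across all 11548 genes the changes with NIKsh#1 and NIKsh#2 correlated at 0.365 (Pearson, across genes, which are not independent replicates and share the platform and its noise), those with NIKsh#1 and NTC at -0.062 and those with NIKsh#2 and NTC at 0.278. At least 1.5-fold the same way with both hairpins were 333 genes higher and 242 lower, and 102 genes (0.883%) were at least 1.5-fold apart in opposite ways. By itself, NIKsh#1 had 787 genes at least 1.5-fold higher and 888 lower, and NIKsh#2 1476 and 817.

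**Figure D4:**
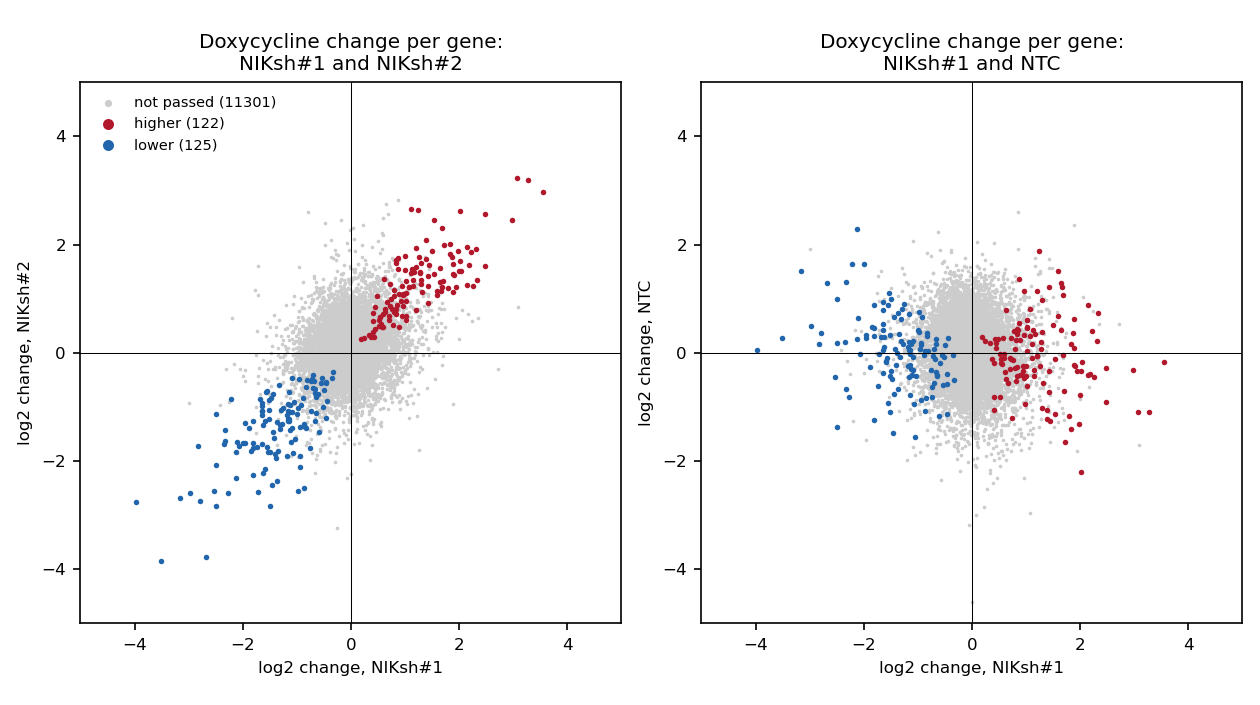
Log2 change with doxycycline per gene for 11548 genes, NIKsh#1 (x axis) against NIKsh#2 (left) and against NTC (right); red and blue points are the 122 genes that passed as higher and the 125 that passed as lower. The genes that passed lie along the diagonal in the left panel, which the test itself requires, and on both sides of 0 for NTC in the right panel.

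Among the genes with opposite changes, ANXA1, a phospholipid-binding protein gene, went from 53.6 to 129 with NIKsh#1 and from 56.9 to 23.6 with NIKsh#2. NINJ1, which encodes a protein of membrane rupture, went from 180.4 to 85.3 with NIKsh#1 and from 138.5 to 291 with NIKsh#2. UAP1L1 went from 149.6 to 75.5 and from 109 to 334, and MCOLN1, a lysosomal channel gene, from 32.8 to 15.9 and from 28.3 to 60.3. These are values of 1 pair per hairpin, and no test of a difference between the hairpins was made.

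The NTC pair, which received doxycycline with a hairpin that does not target NIK, was no quieter than the NIKsh pairs. Its 3'/5' ratio of ACTB, 2.33 without and 6.34 with doxycycline, was both the lowest and the highest of the 6 Z-138 arrays, and the part of this in the NTC changes was not tested. It had 1603 genes at least 1.5-fold higher (13.9%) and 1240 lower (10.7%), with 1 array per condition and so no test. ACTA2, the smooth muscle actin gene, went from 34.2 to 224, the kinase gene TNK2 from 57.2 to 282, and the histone gene H3C11 from 243 to 7.1. Of the 122 genes that rose with the hairpins, 17 also went up at least 1.5-fold in the NTC pair, 22 went down at least 1.5-fold and 83 stayed within 1.5-fold. For the 125 that fell, 21 also went down, 22 went up and 82 stayed within. Leaving out genes whose NTC change ran the same way past 1.5-fold, an alternative chosen after seeing the data, leaves 209 of the 247.

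For the difference between the NIKsh change and the NTC change, 68 genes passed (0.589%; limma, adjusted p under 0.05), 38 higher (0.329%) and 30 lower (0.26%), and 46 of them also passed for the NIKsh change itself, with which it shares the NIKsh arrays. The largest differences on the higher side were NIBAN3 (4.52 ± 0.31), THSD7A (4.33 ± 0.52), AFF3 (4.26 ± 0.32) and ATP1B1, a sodium pump subunit gene (3.52 ± 0.35), followed by RASGEF1B and RGS13 (limma, adjusted p from 0.00157 to 0.0468). ATP1B1 went from 98.6 to 333 with NIKsh#1, from 79.1 to 324 with NIKsh#2 and from 127 to 38.2 with NTC. On the lower side were EPB41L4B (-4.51 ± 0.53), AQP3 (-4.50 ± 0.36), IL10 (-4.44 ± 0.54), SIM1, ELL2 and UNC13C (limma, adjusted p from 0.00217 to 0.0183). The NTC change itself, opposite in sign to that of the hairpins, was 2.29 for AQP3, 1.52 for IL10 and -2.21 for NIBAN3. Among NF-kB targets, PLEK (-2.48 ± 0.23, limma, adjusted p = 0.0031), TNFAIP3, IL10 and FAS passed. FAS differed by -2.97, with NTC going from 92.6 to 396 and the hairpins from 83.5 to 37.9 and from 83.9 to 48.8.

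The NTC side of this comparison is a single pair, so its own spread is assumed to be that of the other cultures. Without the intensity trend 0 genes passed (limma, 1546 at an unadjusted p under 0.05) and with the mean of all probe sets 15. Of the 11 named genes that then had a value, 3 were still past the threshold. No count is given for fits without a hairpin culture, which leave a single hairpin pair in that line.

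The same doxycycline effect was set against that of the Maver-1 hairpins, and 14 genes differed (0.121%; limma, adjusted p under 0.05), 6 higher (0.052%) and 8 lower (0.0693%) in Z-138, of which 13 also passed for Z-138 itself. AFF3 differed by 3.04 ± 0.26: its signal in Maver-1 was already high without doxycycline and went from 869 to 863 with NIKsh#1 and from 898 to 1053 with NIKsh#2 (limma, adjusted p = 0.00495). NIBAN3 (2.20 ± 0.26) went from 1892 to 1835 and from 1987 to 2408 in Maver-1, and KLHL14, a B cell ubiquitin ligase adaptor (1.83 ± 0.23), from 1189 to 1270.1 and from 1374 to 1489.8 there but from 71.4 to 292 and from 100.5 to 380.3 in Z-138 (limma, adjusted p = 0.027 and 0.0323). RGS2, another regulator of G protein signalling, rose from 556 to 2033 and from 673 to 2292 in Z-138 and went from 1286 to 1238 and from 1294 to 1232 in Maver-1, a difference of 1.88 ± 0.15 (limma, adjusted p = 0.0045). RGS1 differed by 2.06 ± 0.19 (limma, adjusted p = 0.00622). In AFF3, NIBAN3 and KLHL14 the Z-138 level with doxycycline still lay below every Maver-1 array, whereas RGS1 and RGS2 ended above them. The ACTB 3'/5' ratio, higher with doxycycline in both Z-138 hairpin cultures, went from 4.68 to 4.32 with Maver-1 NIKsh#1. With Maver-1 NIKsh#2 it went from 3.655 to 3.801. The part of this in the line difference was not tested, and the NTC changes were not subtracted from it.

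On the lower side, SIM1 and IL10 are counted among the 14, but their signals were at most 2.4 in the Maver-1 hairpin arrays, near the bottom of the scale with and without doxycycline. No fall could have been seen there, so their difference between the lines describes Z-138 alone and says nothing about how Maver-1 responded. UNC13C (-2.66 ± 0.37) went from 714 to 349.9 and from 102 to 76.2 in Maver-1, lower with both hairpins but by less. ELL2 (-2.20 ± 0.28) went from 553 to 486 and from 544 to 321, AQP3 (-2.18 ± 0.30) from 354 to 389 and from 305 to 262, and ENPP2, the gene of the lysophospholipid enzyme autotaxin (-1.60 ± 0.20), from 798 to 692 and from 872 to 819.9. PLEK went from 1288 to 921 and from 1335 to 894 in Maver-1, a change in the same direction, and the difference between the lines was -1.503 ± 0.19. The adjusted p (limma) of these 5 genes ran from 0.0323 to 0.0474.

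MAP3K14 (0.08), NFKB2 (-0.13), RELB (-0.89) and CD40 (-1.47) did not pass for the difference between the lines (limma, adjusted p = 0.958, 0.934, 0.53 and 0.287), which does not show that the lines responded alike. Of the 125 genes that fell in Z-138, 100 had a change below 0 with both Maver-1 hairpins, where 28% of all genes did, and 15 were at least 1.5-fold lower with both, as 0.658% of all genes were. Of the 122 that rose, 64 had a change above 0 with both, where 25.1% of all genes did, and 3 were at least 1.5-fold higher, as 0.537% of all genes were. The Maver-1 NIKsh pairs set part of the spread behind these calls. Genes on which those pairs agreed passed more readily, so the shared signs are partly built in. Without the intensity trend 0 genes passed for the line difference (limma, 941 at an unadjusted p under 0.05) and with the mean of all probe sets 1, where AFF3, NIBAN3 and AQP3 no longer passed. The count was 9 without the Z-138 NTC pair. No count is given for fits without a hairpin culture, since a single hairpin pair then stands for that line.

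**Figure D5:**
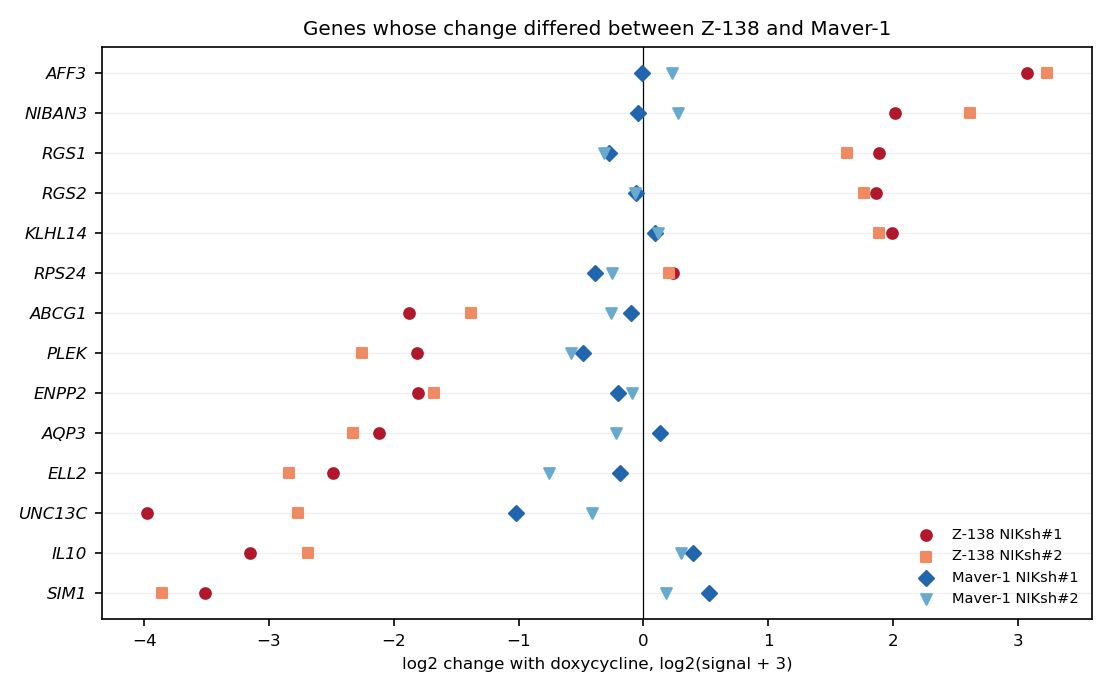
Log2 change with doxycycline (x axis) for the 14 genes whose change differed between the lines (y axis), 1 pair of arrays per symbol; SIM1 and IL10 were near the bottom of the scale in Maver-1. The Z-138 hairpins lie between -3.98 and 3.23, and the Maver-1 hairpins stay nearer to 0 for 13 of the 14 genes; RPS24, a ribosomal protein gene, moves little in either line.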

How the data were processed

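The 12 arrays measured total RNA after amplification and biotin labelling. The deposited values are linear signal intensity per probe set, made by the authors with MAS5 per the submitters' processing notes; the trimmed mean of 150.02 on every array was computed here. Detection calls were not used. The platform annotation gave 1 gene symbol for 41091 of the 54675 probe sets and several for 1801, and 11721 were not named here. The probe set with the highest mean stood for its gene. Genes under a mean signal of 12.55 over 12 arrays were left out, which kept 11548 of 19775.

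The model was limma 3.58.1 (R 4.3.3) on log2(signal + 3) over all 12 arrays, with culture as a fixed block, a doxycycline effect per line and knockdown, an intensity trend in the variance, 2 residual degrees of freedom, and Benjamini-Hochberg adjustment over 11548 genes at 0.05. A value after ± is the limma SE. The block follows the labels, by which each culture was split with or without doxycycline; the deviations of paired arrays correlated across genes at -0.038 (Z-138) and 0.202 (Maver-1). Tables and figures used Python 3.11.15, pandas 2.3.3 and matplotlib 3.10.9, and the fit was tested on simulated data.

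Genes named are the 12 highest and 12 lowest changes that passed with the same sign for both hairpins (1 of the 12 lowest is not described in the text), 6 each way for the differences from NTC and from Maver-1, up to 4 each way for counts without a test, the alternative pathway genes and up to 4 members of each list. Members and gene lists were chosen with earlier results of these data known. Alternatives changed the pseudocount, scaling, filter, probe set rule, block, variance trend and the arrays used.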

Additional observations from a re-analysis of the deposited data

Results flagged for a closer look

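The doxycycline effect of the Z-138 hairpins differed from that of the Maver-1 hairpins, by the interaction contrast of the limma model, for 14 genes. On the higher side the differences were 3.04 for AFF3, 2.20 for NIBAN3, 2.06 for RGS1, 1.88 for RGS2, 1.83 for KLHL14 and 0.54 for RPS24. On the lower side they were -1.45 for ABCG1, -1.503 for PLEK, -1.60 for ENPP2, -2.18 for AQP3, -2.20 for ELL2, -2.66 for UNC13C, -3.27 for IL10 and -4.04 for SIM1. IL10 and SIM1 had signals of at most 2.4 in the Maver-1 hairpin arrays with and without doxycycline, so their values say nothing about the response of Maver-1. ABCG1, a cholesterol exporter gene, went from 939.5 to 254 and from 1026 to 391 with the Z-138 hairpins and from 1229.6 to 1149 and from 1161 to 968 with the Maver-1 hairpins. RPS24 went from 4008 to 4713 and from 3708 to 4287 with the hairpins of Z-138, and with those of Maver-1 from 4469 to 3414 and from 4833 to 4059.9. It was the one gene of the 14 that did not pass in Z-138 alone (limma, adjusted p = 0.0799).

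The same effect differed from that of the Z-138 NTC pair, by the contrast of the limma model, for 68 genes, of which the 6 named on the higher side were NIBAN3 (4.52), THSD7A (4.33), AFF3 (4.26), ATP1B1 (3.52), RASGEF1B (3.44) and RGS13 (3.44). The 6 on the lower side were EPB41L4B (-4.51), AQP3 (-4.50), IL10 (-4.44), SIM1 (-3.96), ELL2 (-3.66) and UNC13C (-3.42). No group held the 4 arrays that a search for outlying samples needs.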

How the results depend on the processing

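The 247 genes that passed in Z-138 became 164 without the low-signal filter, 98 with a filter at the 75th percentile of signal, 118 with the mean of all probe sets, 23 without the intensity trend and 556 from the 4 Z-138 NIKsh arrays alone. The 68 genes that differed from NTC became 114 with arrays scaled to one median, 44 without the filter, 43 at the 75th percentile, 15 with the mean of all probe sets, 152 with a random block, 0 without the trend and 362 from the 6 Z-138 arrays alone. The 14 genes that differed from Maver-1 became 9 with a pseudocount of 1, 9 without the filter, 1 with the mean of all probe sets, 0 without the trend and 9 from the 8 NIKsh arrays. Leaving out 1 culture gave 248 to 918 genes in Z-138, 68 to 1110 against NTC and 9 to 423 against Maver-1. Without the replicate block, that is without the pairing of arrays by culture, 220, 80 and 10 genes passed. The causes were not tested.

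Counts at 1.5-fold moved with the filter: without it 601 genes were higher and 421 lower with both hairpins, 448 were opposite, and 3060 were higher and 2305 lower in the NTC pair. At the 75th percentile these were 45, 55, 4, 432 and 285, and at 2-fold 88, 80, 7, 408 and 393. With 1 hairpin alone 787 to 1476 were higher and 817 to 888 lower. Opposite genes were 44 with a pseudocount of 10 and 67 with the mean of all probe sets, which gave 1001 higher in NTC. The mean of the 2 hairpin medians was -0.31 for the alternative pathway after quantile normalization and -0.30 with the mean of all probe sets. For NF-kB targets it was -0.079 at the 75th percentile. Without NIKsh#2 the sign turned for 4 genes that had not passed, and their change without NIKsh#2 and without NIKsh#1 was 0.004 and -0.292 for BIRC2, -0.039 and 1.307 for TNFRSF13B, -0.294 and 1.312 for TNFRSF13C, and 0.072 and -0.397 for TNFRSF17. The precision is limited by 2 hairpins with 1 pair of arrays each.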

Other observations

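Untreated levels were taken from the Z-138 NTC array and from the mean of log2(signal + 3) over the 3 Maver-1 arrays without doxycycline. They were set beside the Z-138 hairpin changes. None of these arrays enters such a change, but the Maver-1 NIKsh arrays set part of the spread by which genes passed. Of the 122 genes that rose with the Z-138 hairpins, 56 (45.9%) were at least 2-fold higher in untreated Maver-1 than in untreated Z-138 and 10 (8.2%) at least 2-fold lower, where 14% and 8.48% of all genes tested were so. Of the 125 genes that fell, 31 (24.8%) were at least 2-fold lower in Maver-1 and 19 (15.2%) at least 2-fold higher. AFF3 and NIBAN3 are examples among the genes that rose. Their untreated signals were 699 and 1844 in the Maver-1 NTC culture and 29.7 and 80.1 in the Z-138 NTC culture. The Z-138 side is a single array, so no test was made, and the low-signal filter, a mean over both lines, also bears on which genes could enter.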
